A study of Mus musculus with 5 samples.

Results

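The 7 genes described here encode heavy chains of class II myosin and were chosen by symbol from a table of 18307 RefSeq genes: Myh6, Myh7, Myh7b, Myh9, Myh10, Myh11 and Myh14. They have 11 of the 25187 transcripts in the transcript table. RNA was sequenced from heart ventricles of CD-1 mouse embryos, an outbred stock, at E10.5. There were 3 caffeine libraries, from embryos whose dams had received 20 mg/kg caffeine each day between E6.5 and E9.5, and 2 vehicle libraries, from dams injected with 0.9% saline on the same days. Each library is a pool of ventricles dissected from embryos of the same dams, so embryos of 1 litter are not separate values, and the treatment was given to the mother. No other allele, strain or agent differed between the groups, per the labels.

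Myosin heavy chains pair into the 2-headed motor that walks on actin. The cardiac heavy chains, alpha (Myh6) and beta (Myh7), build the thick filaments of the heart muscle sarcomere, and in the mouse the beta chain prevails in the embryonic ventricle while the alpha chain takes over after birth. Myh7b is an ancient relative of both that is expressed at low level in heart and slow muscle. Myh9, Myh10 and Myh14 encode the nonmuscle chains IIA, IIB and IIC, which drive cell shape, division and migration, and Myh11 encodes the smooth muscle chain. Caffeine blocks adenosine receptors and, in muscle, acts on the calcium release channel that sets contraction going.

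Each of the 3 cardiac-type genes carries a microRNA in an intron. Their positions are from RefSeq, and the introns were numbered from the exons of GENCODE M21. By these, miR-208a-3p lies in intron 29 of the 38 introns of Myh6 (GRCm38.p6, minus strand, chr14:54949072-54949093). In the same way miR-208b-3p lies in intron 31 of 40 of Myh7 (minus strand, chr14:54975710-54975731), and miR-499-5p in intron 19 of 41 of Myh7b (plus strand, chr2:155622893-155622913). Their sequences are shown because the host genes are the members that this comparison turns on. Capitals mark the seed, bases 2 to 8:
miR-208a-3p: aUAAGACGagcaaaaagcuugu
miR-208b-3p: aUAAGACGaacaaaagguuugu
miR-499-5p: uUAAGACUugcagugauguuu
The 2 microRNAs of the neighbouring genes share all 7 seed bases and 19 of 22 positions. miR-499-5p shares 6 of the 7 seed bases with each of them. The tables hold no row for these microRNAs, so the values below are those of the host messenger RNA.

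The sequences before the transcription starts of the same 3 genes are given next, from RefSeq on GRCm38.p6, since 2 of these genes had lower and 1 had higher values in caffeine. Each ends 1 base before the gene's start in the deposited table. Capitals mark the letters of any of 4 motifs on either strand. The GATA factors' motif was searched as AGATAA and, with its other first base, as TGATAA. The MCAT element, which TEAD factors bind, was searched as CATTCC. The TATA box was searched as TATAAA, and the CArG box, which SRF binds, was searched as well. The Myh7b stretch is on the plus strand (chr2:155610993-155611211), those of Myh6 (chr14:54966608-54966857) and Myh7 (chr14:54994550-54994799) are on the minus strand:
Myh7b: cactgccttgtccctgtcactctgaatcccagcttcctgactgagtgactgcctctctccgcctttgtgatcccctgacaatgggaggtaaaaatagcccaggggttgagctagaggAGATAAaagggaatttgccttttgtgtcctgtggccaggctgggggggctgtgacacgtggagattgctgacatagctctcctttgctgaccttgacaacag
Myh6: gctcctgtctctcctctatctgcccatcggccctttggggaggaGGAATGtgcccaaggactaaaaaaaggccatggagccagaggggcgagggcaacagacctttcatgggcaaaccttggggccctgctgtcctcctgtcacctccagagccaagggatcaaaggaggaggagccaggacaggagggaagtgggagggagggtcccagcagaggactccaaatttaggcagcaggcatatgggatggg
Myh7: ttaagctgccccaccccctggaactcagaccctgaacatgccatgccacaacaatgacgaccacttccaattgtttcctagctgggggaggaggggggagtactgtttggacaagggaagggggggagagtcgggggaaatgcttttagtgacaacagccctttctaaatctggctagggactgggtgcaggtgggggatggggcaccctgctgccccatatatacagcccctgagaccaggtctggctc
The GATA letters occur once in the Myh7b stretch, the MCAT letters once in that of Myh6 on the other strand, and none of the 4 motifs in that of Myh7. In the Myh6 window TATAAA lies at base 1, past the end of the printed stretch. RefSeq has another, farther Myh7 start, whose window holds the MCAT letters on the other strand at base -201. Over 32851 RefSeq promoter windows of 300 bases, 18.6% hold the GATA letters, 14.7% the MCAT letters, 13.6% TATAAA and 1.63% a CArG box, so these matches are common and are given as letters only.

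All libraries held markers of ventricle and of other cell types. Gene totals were 21713381 to 23530555 counts in caffeine and 22397199 and 25048134 counts in vehicle. The summed level of 10 cardiomyocyte markers (such as Tnnt2, Actc1 and Myl4) was 21900, 22010 and 22810 CPM (counts scaled to the library's TMM-adjusted total) in caffeine replicates 1, 2 and 3 and 27400 and 24380 CPM in vehicle replicates 1 and 2, so the sum was lower in every caffeine library. Of the 10 markers 9 had negative log2 fold changes (median -0.23), none passed FDR 0.05 with edgeR, 2 had an unadjusted p under 0.05 (5.2% of all genes tested did) and 3 did not overlap between the groups, all lower in caffeine (9.27% of all genes). Of the 4 ventricular markers, Myl2 had a negative log2 fold change (-0.30) and Mycn (0.155), Irx4 (0.13) and Hey2 (0.04) positive ones. Of the atrial markers Sln had 0 or 1 count per library, while Nr2f2, Stard10 and Nr2f1 were detected in all, the 4 summing to 44.7 to 56.8 CPM in caffeine and 56.3 and 47.0 CPM in vehicle. The myogenic factors of skeletal muscle, Myod1, Myog and Myf5, had 0 to 2 counts, while Acta1, which the early heart also expresses, had 259.7 to 696.5 CPM in caffeine and 569.7 and 496.7 CPM in vehicle. Of the same list, Tnnt3 had 2.035, 4.51 and 3.90 CPM in caffeine and 7.33 and 5.06 CPM in vehicle (log2 fold change -0.83, SE 0.32, edgeR adjusted p = 0.924). Its values did not overlap between the groups. Ckm had 3.53, 3.18 and 2.77 CPM in caffeine and 4.78 and 2.19 CPM in vehicle, which overlapped. Markers of foregut and hepatic endoderm, led by Afp, were uneven, with a sum of 38.3, 24.2 and 7.22 CPM in caffeine and 7.58 and 116.5 CPM in vehicle, vehicle replicate 2 being the highest. Erythroid markers summed to 6468 to 10200 CPM in caffeine and 10680 and 6148 CPM in vehicle. Sums in caffeine replicates 1, 2 and 3 and vehicle replicates 1 and 2 were 1313, 1158, 1167, 1270 and 1400 CPM for endothelium and endocardium. They were 524.9, 336.8, 311.7, 341.1 and 328.4 CPM for cushion mesenchyme and 464.9, 388.9, 329.4, 323.2 and 373.1 CPM for epicardium. Log2 fold changes were positive for 1 of 7, 4 of 5 and 5 of 5 of these markers, and none passed FDR 0.05 with edgeR. The part of these in the values of the heavy chains was not tested. The 7 heavy chain genes took 1.13% to 1.21% of all gene counts in caffeine and 1.31% and 1.34% in vehicle. In a pool of tissue, fewer cells of a type and less RNA per cell cannot be told apart.

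The top gene was 13400 to 72600 times as high as the lowest within a library, and the order of the 7 was the same in all 5 libraries. Compared per length, as CPM per kb of the longest transcript, Myh7 was the most abundant (1243 ± 114 in caffeine, SD, n = 3; 1494 ± 27.9 in vehicle, SD, n = 2), followed by Myh6 (506.7 ± 71.3 in caffeine, 577.3 ± 27.3 in vehicle). The nonmuscle chains Myh10 (73.2 ± 8.12 in caffeine, 84.2 ± 11.7 in vehicle) and Myh9 (32.8 ± 1.38 in caffeine, 35.3 ± 2.25 in vehicle) came next. Myh7b reached 5.88 ± 0.683 in caffeine and 2.59 ± 0.571 in vehicle. Myh14 (0.194 ± 0.0724 in caffeine, 0.218 ± 0.0484 in vehicle) and Myh11 (0.0710 ± 0.0289 in caffeine, 0.0356 ± 0.0208 in vehicle) were the lowest. No neighbours in this order overlapped in their range over the 5 libraries, though Myh14 and Myh11 rest on 3 to 41 counts per library.

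**Figure D1:**
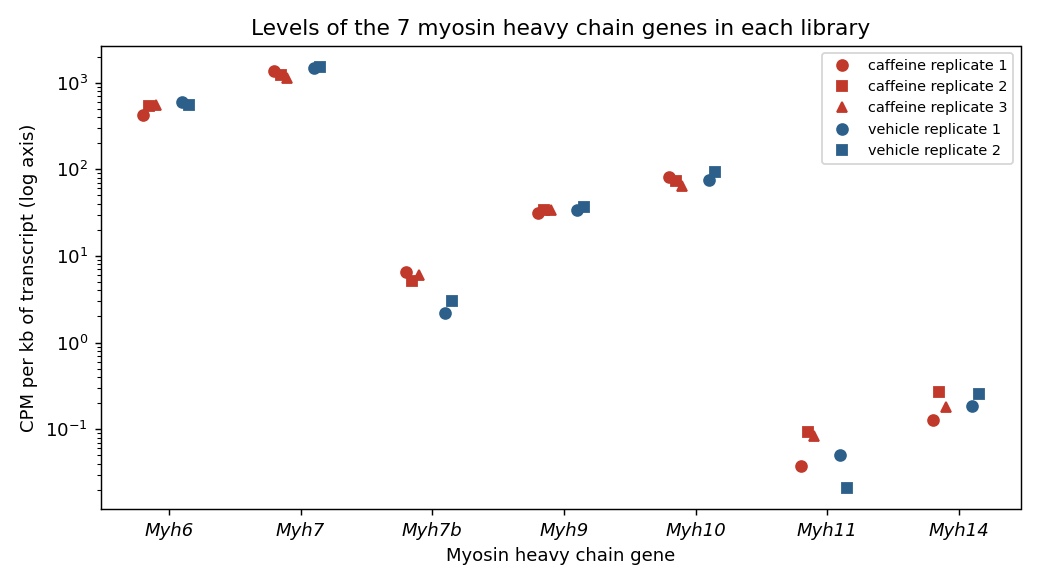
Levels of the 7 heavy chain genes in each library, as CPM per kb of transcript on a log axis, with caffeine libraries in red on the left and vehicle libraries in blue on the right of each gene. Myh7 lies between 1134 and 1514 in all libraries, and in Myh7b the 3 caffeine points (5.13 to 6.47) stand above both vehicle points (2.19 and 2.99).

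Whether caffeine in early gestation altered these genes was asked by testing caffeine against vehicle over all genes with edgeR's quasi-likelihood test. None of the 7 members passed at an adjusted p (false discovery rate, FDR) of 0.05; over the 13829 genes tested 0.00723% passed, which is 1 gene, and it is no member. Myh7b was the member furthest from 0, about 2.3 times as high in caffeine as in vehicle, and had the second smallest p of all genes tested. Myh6, Myh7, Myh9 and Myh10 had slightly lower values in caffeine, within 0.27 of 0 on the log2 scale. All 7 genes passed the filter on low counts. At an unadjusted p under 0.05 there was 1 member, Myh7b, where 5.2% of all genes passed (3.13% higher and 2.07% lower in caffeine). DESeq2 called 1 of the 7, Myh7b, where 0.138% of all genes passed, and gave Myh11 no adjusted p. With limma-voom none of the 7 passed, where 0.00723% of all genes did. For 4 of the 7 the caffeine and vehicle values did not overlap, with Myh7b higher and Myh6, Myh7 and Myh9 lower in caffeine. Over all genes tested 20.4% did not overlap, 11.2% higher and 9.27% lower. The nearest caffeine and vehicle libraries were almost equal for Myh6 (3409 and 3411 CPM) and Myh9 (250.3 and 250.7 CPM). With the scaling of the transcript fit, the only Myh9 transcript overlapped between the groups. So did NM_001164171 of Myh6, while NM_010856 of Myh6 did not.

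**Figure D2:**
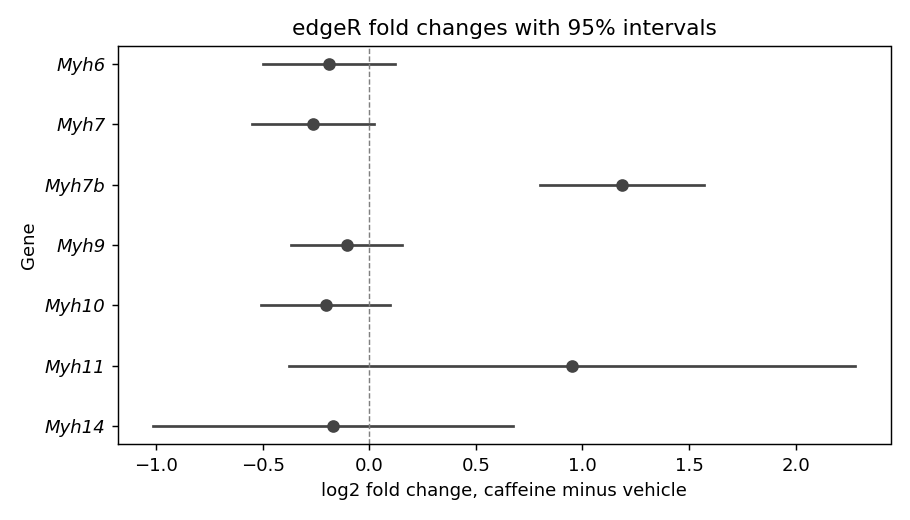
log2 fold changes of the 7 genes, caffeine minus vehicle, from edgeR (points) with 95% confidence intervals not adjusted for the number of genes (lines). The interval of Myh7b (0.80 to 1.57) lies above 0 and those of the other 6 genes include 0.

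Myh7 (chromosome 14, 54970688 to 54994549, mm10, minus strand) makes the beta heavy chain, the slow motor. It had 8356, 7561 and 6957 CPM in caffeine replicates 1, 2 and 3, against 9047 and 9289 CPM in vehicle replicates 1 and 2. All 3 caffeine libraries were below both vehicle libraries. The log2 fold change was -0.27 (SE 0.13, 95% interval -0.55 to 0.02, edgeR adjusted p = 0.982), and leaving out 1 library at a time gave -0.34 to -0.20. It has 1 transcript in the RefSeq table, NM_080728.

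Myh6 (chromosome 14, 54941921 to 54966607, minus strand) makes the alpha heavy chain, the faster motor, and lies 4080 bases downstream of Myh7. It had 2599, 3284 and 3409 CPM in caffeine against 3647 and 3411 CPM in vehicle. Caffeine replicate 1 was low, while caffeine replicate 3 lay just under vehicle replicate 2. The log2 fold change was -0.19 (SE 0.14, 95% interval -0.50 to 0.12, edgeR adjusted p = 0.999), and -0.08 without caffeine replicate 1. With the same letters in both genes over 22.5% of the stretches of 50 bases in Myh6 transcripts, some reads could fit either gene, and their assignment by the authors' counting carries an error that no test includes. Both genes also overlap antisense genes in GENCODE. Gm31251, the noncoding Mhrt and Gm29015 share 523, 484 and 142 exon bases with Myh7, and Gm49130 shares 114 with Myh6. The sources used here do not say whether counting used strand. The gene D830015G02Rik, a row of the deposited table, overlaps Myh7 on the other strand, at 17.4 to 21.9 CPM in caffeine and 25.7 and 20.5 CPM in vehicle. The row Gm1821, on the other strand too, had 560.2 to 724.1 CPM in caffeine and 843.6 and 531.5 CPM in vehicle; its listed span covers both genes but runs far beyond them, so where its counts lie cannot be told from the table.

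The balance of the alpha and beta chains varied more within caffeine than between groups. Myh6 made up 23.8%, 30.4% and 33.0% of the Myh6 and Myh7 counts per kb in caffeine replicates 1, 2 and 3, against 28.8% and 26.9% in vehicle. Both vehicle libraries lay inside the range of the caffeine libraries, and the means were 29.0% ± 4.73 in caffeine (SD, n = 3) and 27.9% ± 1.32 in vehicle (SD, n = 2; exact permutation test over libraries, two-sided p = 0.8). Beta exceeded alpha in every library.

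Relative to the cardiomyocyte markers, the 2 main cardiac chains overlapped between the groups. Per 1000 CPM of the 10 markers, a measure chosen after the values were seen, Myh7 had 381.6, 343.6 and 305 CPM in caffeine against 330.1 and 381 CPM in vehicle, and Myh6 had 118.7, 149.2 and 149.4 CPM in caffeine against 133.1 and 139.9 CPM in vehicle. Myh7b did not overlap on this scale, with 1.82, 1.44 and 1.63 CPM in caffeine against 0.492 and 0.757 CPM in vehicle.

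Myh7b (chromosome 2, 155611212 to 155634307, plus strand) makes a slow heavy chain of the cardiac type, and in mammalian heart much of its RNA is known to be spliced without one exon into a form that gives no full-length protein. It had 960, 736 and 821 counts, or 39.9, 31.6 and 37.3 CPM, in caffeine replicates 1, 2 and 3, against 327 and 405 counts, or 13.5 and 18.5 CPM, in vehicle replicates 1 and 2. Every caffeine library was above both vehicle libraries, the lowest caffeine value being 31.6 and the highest vehicle value 18.5 CPM. The means were 36.3 ± 4.21 CPM in caffeine (SD, n = 3) and 16.0 ± 3.52 CPM in vehicle (SD, n = 2), a ratio of 2.27. The log2 fold change was 1.19 (SE 0.18, 95% interval 0.80 to 1.57), with an unadjusted p of 1.96e-05 and an edgeR adjusted p of 0.115.

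The Myh7b call turned on the tool and on the genes tested. DESeq2 estimated 1.18 on the log2 scale (SE 0.20, adjusted p = 5.4e-06), a tool with which 0.138% of genes passed; limma-voom estimated 1.20 (SE 0.18, adjusted p = 0.128). With edgeR it passed where no low-count filter was used (adjusted p = 0.00136) and without caffeine replicate 1 (1.11, adjusted p = 0.00837). It did not pass with the other scalings (adjusted p = 0.0556 to 0.136), and without vehicle replicate 1 its log2 fold change was 0.97 (adjusted p = 0.558, with 1 vehicle library assumed to vary like the caffeine libraries). The direction was the same in all 16 alternatives, but 1 of them is the main fit read at FDR 0.1, which could not reverse. The smallest adjusted p, 1.36e-06, came from edgeR with the replicate number as a block, a pairing that the labels do not state. Among 4759 genes of similar level (mean log2 CPM of 4 to 6, a range set after the value was seen), 0.105% had a log2 fold change of 1 or more.

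**Figure D3:**
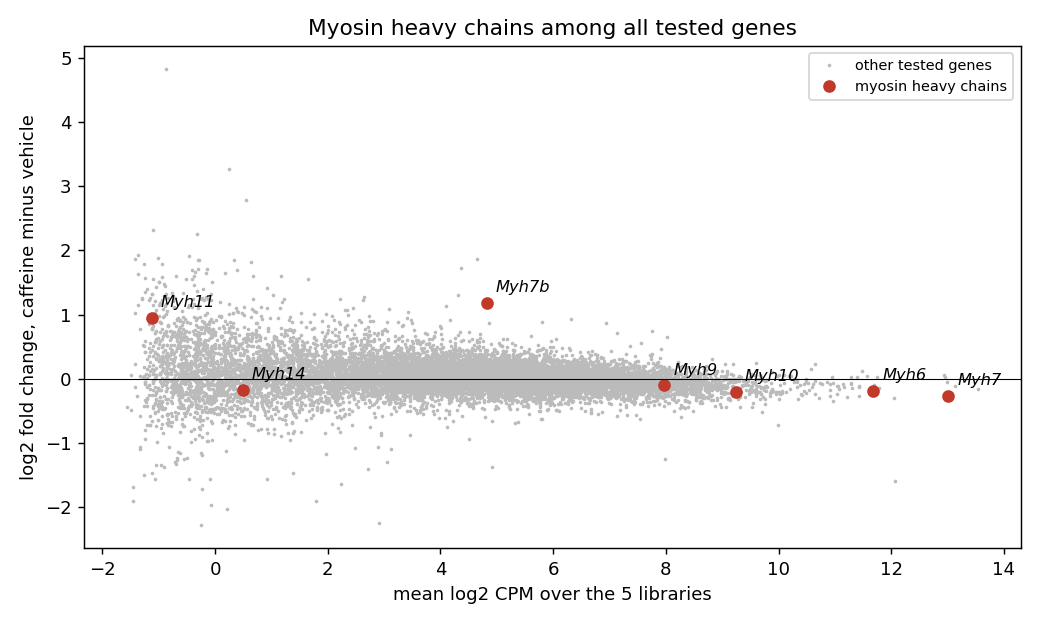
log2 fold change against mean log2 CPM for all 13829 genes tested, with the heavy chain genes in red. Myh7b (1.19 at a mean log2 CPM of 4.82) stands above most genes of its level, while Myh6, Myh7, Myh9 and Myh10 lie close to 0 and the few counts of Myh11 put it among widely scattered genes.

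**Figure D4:**
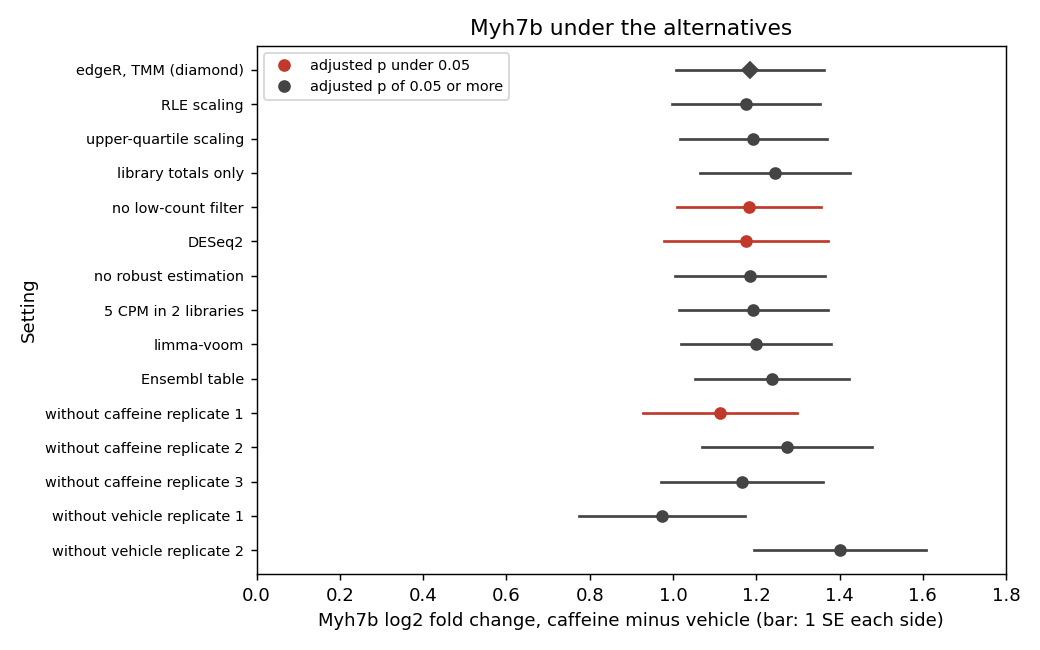
Myh7b log2 fold change under the fit as reported (diamond) and under each other way of fitting except the replicate block, with bars of 1 SE to each side and red where the adjusted p was under 0.05. All values lie between 0.97 and 1.40.

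Myh7b has no stretch of 50 bases in common with any of the other 6 members, while sharing with genes outside this set was not examined. Its exons overlap 37 exon bases of Trpc4ap on the other strand, and Trpc4ap itself had 164.2, 154.3 and 176.3 CPM in caffeine and 172.9 and 156.2 CPM in vehicle (log2 fold change 0.00, SE 0.13). The RefSeq table lists 1 Myh7b transcript, NM_001085378, with a log2 fold change of 1.19 (SE 0.20, edgeR adjusted p = 0.216); DESeq2 gave 1.18 (adjusted p = 3.13e-05). No transcript of any gene passed with edgeR (0% of 18418), while 7.36% had an unadjusted p under 0.05 and DESeq2 called 194. In the Ensembl table Myh7b-001 took 87.2%, 91.1% and 88.3% of the gene's counts in caffeine and 93.9% and 91.0% in vehicle, and the minor Myh7b-003 took 10.5%, 8.46% and 10.01% in caffeine and 4.31% and 7.39% in vehicle. The share of the minor form was higher in all caffeine libraries, but the gene did not pass the usage test (edgeR diffSpliceDGE adjusted p = 0.687).

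As a share of the 3 cardiac-type chains, Myh7b was minor throughout. It made up 0.361%, 0.289% and 0.356% of their counts per kb in caffeine and 0.105% and 0.144% in vehicle. The groups did not overlap, and the means were 0.335% ± 0.0400 in caffeine (SD, n = 3) and 0.125% ± 0.0275 in vehicle (SD, n = 2). The exact permutation test gave p = 0.1 (two-sided), the smallest that 3 against 2 libraries allow, and 0.4 adjusted over the 4 shares tested.

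**Figure D5:**
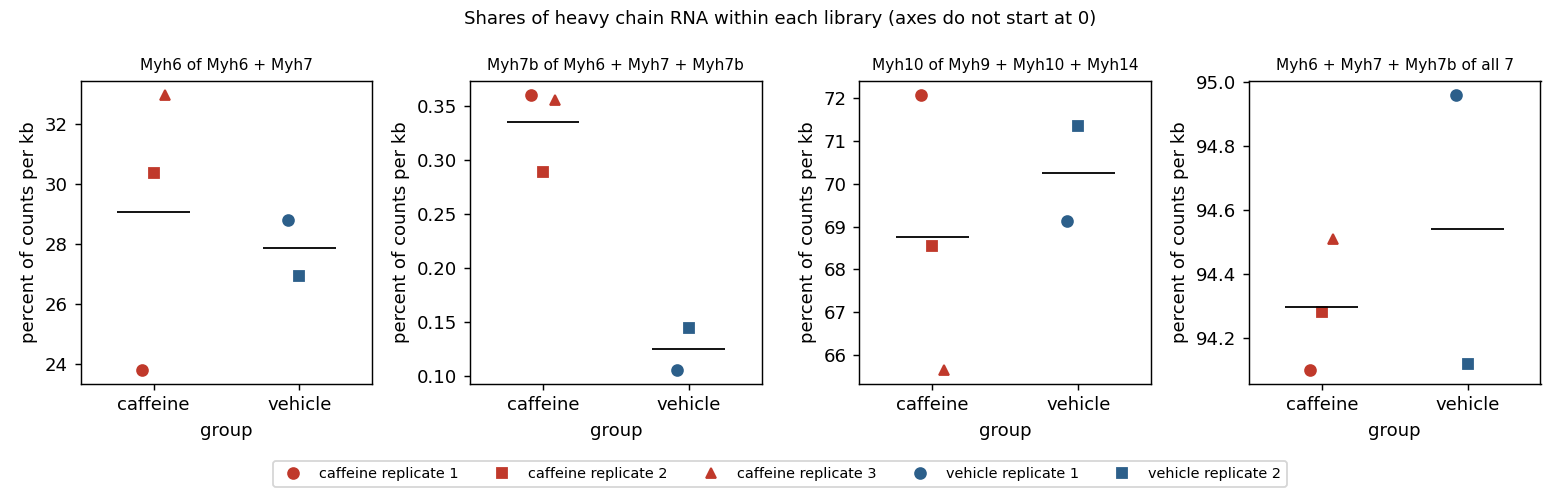
Shares of heavy chain counts per kb within each library, with points for libraries and lines for group means, caffeine left and vehicle right; the axes do not start at 0. Only the Myh7b share separates the groups (0.289% to 0.361% in caffeine, 0.105% and 0.144% in vehicle), and its exact p of 0.1 is the smallest this design can give.

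Myh10 and Myh9 are the nonmuscle chains of this tissue. Myh10 (chromosome 11, 68691915 to 68816624, plus strand), whose IIB chain is needed for cardiac myocyte division in the mouse, had 630.7, 574.6 and 504.5 CPM in caffeine against 592.0 and 720.5 CPM in vehicle. The groups overlapped, vehicle replicate 1 lying among the caffeine libraries. The log2 fold change was -0.20 (SE 0.14, 95% interval -0.51 to 0.10, edgeR adjusted p = 0.999), and it was -0.34 without vehicle replicate 1 and -0.08 without vehicle replicate 2.

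Myh9 (chromosome 15, 77760589 to 77842115, minus strand), the gene of the IIA chain found in most nonmuscle cells, had a range of 232.2 to 274.3 CPM over the 5 libraries. It had 232.2, 249.6 and 250.3 CPM in caffeine against 250.7 and 274.3 CPM in vehicle, so the highest caffeine library lay just under the lowest vehicle library. The log2 fold change was -0.11 (SE 0.12, 95% interval -0.37 to 0.15, edgeR adjusted p = 0.999), and it was -0.17 without vehicle replicate 1 and -0.07 without vehicle replicate 2. Myh10 made up 72.1%, 68.5% and 65.7% of the nonmuscle counts per kb in caffeine and 69.1% and 71.3% in vehicle, which overlapped (exact permutation test, two-sided p = 0.6).

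Myh11 and Myh14 were near the limit of detection. Myh11 (chromosome 16, 14194527 to 14291408, minus strand), the marker chain of mature smooth muscle, had 6, 14 and 12 counts in caffeine and 8 and 3 counts in vehicle. Its log2 fold change of 0.95 had an interval of -0.38 to 2.28 and an edgeR adjusted p of 0.999, so at this depth a doubling and a slight decrease could not be told apart. It was 1.72 without vehicle replicate 1 and 0.46 without vehicle replicate 2. Of the 6 other smooth muscle markers, Acta2 had 1249, 2141 and 2769 CPM in caffeine and 2451 and 2135 CPM in vehicle, and Lmod1, the lowest, had 1.74, 10.7 and 13.0 CPM in caffeine and 10.9 and 8.61 CPM in vehicle. Caffeine replicate 1 was the lowest library in both, and in Tagln, at 137.6 CPM against 289.7 to 366.3 CPM in the other libraries. Myh14 (chromosome 7, 44605803 to 44670843, minus strand), the IIC chain, had 20, 41 and 26 counts in caffeine and 29 and 36 counts in vehicle, with a log2 fold change of -0.17 (SE 0.39) that turned positive without caffeine replicate 1 (0.06) or vehicle replicate 2 (0.05).

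The sarcomeric members together held 94.1%, 94.3% and 94.5% of the counts per kb of all 7 genes in caffeine, against 94.96% and 94.12% in vehicle. These shares overlapped, and the exact permutation test gave a two-sided p of 0.6.

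Of the 11 RefSeq transcripts, 8 passed the low-count filter, all but both of Myh11 and NM_001271538 of Myh14. No shift between transcripts of 1 member passed the test in the RefSeq table. Of the Myh6 counts, NM_010856 took 61.5% to 61.8% in caffeine and 62.0% and 61.9% in vehicle, the rest going to NM_001164171 (edgeR diffSpliceDGE adjusted p = 1). These 2 transcripts have the same coding sequence and differ by 105 bases in length. The 2 Myh11 transcripts were given 57.2% and 42.8% in every library, at 3 to 14 counts of the gene. Shares that repeat exactly at so few counts, here and for Myh14, are not read as a measured balance. Of the 3 Myh14 transcripts, NM_028021 took 49.95% in all libraries but vehicle replicate 1, where it took 68.1% (adjusted p = 0.759 for the gene). Over all genes 3.07% of 2897 passed this test.

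The Ensembl table gives finer forms, tested as an addition chosen after the data were seen, with 6.94% of 7540 genes passing and none of the 6 members tested. Myh7-201 took 17.2%, 16.9% and 16.5% of the Myh7 counts in caffeine and 11.9% and 14.9% in vehicle (edgeR diffSpliceDGE adjusted p = 0.338). The caffeine libraries were all above the vehicle libraries, and Myh7-001 took most of the rest, at 82.3% to 83.0% in caffeine and 87.6% and 84.5% in vehicle. Myh10-003 stood out in 1 library, with 4.33%, 5.04% and 6.68% of the Myh10 counts in caffeine, against 13.5% in vehicle replicate 1 and 3.81% in vehicle replicate 2 (adjusted p = 0.674).

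The heavy chains of skeletal muscle were almost absent. Of 7 other class II genes listed, 6 are in the table and only Myh1, a fast skeletal chain, could be tested, with 16, 12 and 9 counts in caffeine and 13 and 12 counts in vehicle (log2 fold change -0.02, SE 0.45). Myh2, Myh3, Myh4, Myh8 and Myh13 had 0 to 7 counts per library.

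Of the listed genes that fold, place or control myosin, none of those tested passed FDR 0.05 with edgeR, where 0.00723% of all genes did. Of 14 tested genes of myosin folding and the thick filament, none passed FDR 0.05 with edgeR. An unadjusted p under 0.05 was found for 1 of them, against 5.2% of all genes. Positive values numbered 4 and negative ones 10, with a median log2 fold change of -0.04 against 0.01 over all genes. Hsp90aa1, a chaperone that works with Unc45b on the myosin head, had the smallest p (-0.40, SE 0.14), followed by the M-band protein gene Myom1 (-0.21, SE 0.12) and Mybphl (-0.28, SE 0.17). The muscle-specific chaperone Unc45b had -0.02 (SE 0.13), and Mybpc3, cardiac myosin binding protein C, -0.05 (SE 0.13). Of 20 tested regulators of nonmuscle and smooth muscle myosin, none passed and none had an unadjusted p under 0.05 (5.2% of all genes did). In this list 9 were positive and 11 negative (median -0.01). The smallest p belonged to the small GTPase gene Rhob (0.25, SE 0.13). Next came the myosin phosphatase subunit gene Ppp1r12c (0.25, SE 0.14) and the inhibitor of that phosphatase, Ppp1r14a (0.61, SE 0.41).

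Of 33 tested regulators of the cardiac myosin genes, none passed with edgeR and 1 had an unadjusted p under 0.05 (5.2% of all genes did). Positive values numbered 24 and negative ones 9, with a median of 0.09, and over all genes 53.0% were positive. Tead3, a factor that binds MCAT elements, had 22.6, 18.0 and 26.0 CPM in caffeine against 15.3 and 13.4 CPM in vehicle (0.63, SE 0.18, edgeR adjusted p = 0.698). The Tead3 values did not overlap between the groups, and 11.2% of all genes did not overlap with caffeine higher. Thrb, the thyroid hormone receptor beta, was below 1 CPM in every library (1.16, SE 0.55), and Mef2d had 0.30 (SE 0.15). Of 18 tested unconventional myosins, which carry cargo or tether membranes, none passed with edgeR and 3 had an unadjusted p under 0.05, 1 higher and 2 lower in caffeine (3.13% and 2.07% of all genes), with 6 positive and 12 negative (median -0.15). Myo19, a motor of mitochondria, had 10.4, 13.5 and 16.9 CPM in caffeine and 6.43 and 8.11 CPM in vehicle (0.91, SE 0.23, edgeR adjusted p = 0.517), and Myo10 (-0.31, SE 0.13) and Myo6 (-0.35, SE 0.15) had the next smallest p.

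The genes whose log2 CPM ran most like that of a member over the 5 libraries were found by the root mean square difference after centring. For Myh7b these were the small nucleolar RNA host gene Snhg5 (0.0932), Nrbp2 (0.115) and the pseudogene Tmem181b-ps (0.139), out of 11986 genes compared. Snhg5 had 10.9, 10.1 and 11.1 CPM in caffeine against 4.41 and 5.69 CPM in vehicle. For Myh6 they were Thoc5 (0.0135), Abcf2 (0.0160) and Eif4a1 (0.0172), and for Myh7 Stk3 (0.0250), Pygb (0.0254) and Uaca (0.0305), out of 6249 genes. The likeness is a description of these 5 libraries.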

How the data were processed

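RNA was measured in 5 libraries, 3 of caffeine and 2 of vehicle. The authors deposited estimated counts, not scaled between libraries, per gene and per transcript on RefSeq and on Ensembl release 71, as the annotation columns of the deposited tables state. TopHat and Partek, and the builds mm10 and GRCm38, appear without versions or roles in the submitters' processing notes. In the deposited tables the stop is 1 past the end in the annotation, so ends are the stop minus 1.

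These values were made whole by rounding, filtered with filterByExpr, scaled by TMM and tested with edgeR 4.0.16 in R 4.3.3 (glmQLFit, robust, glmQLFTest) in two-sided tests. Adjusted p-values are Benjamini-Hochberg values over every feature tested, with a threshold of 0.05 (FDR). Each SE was taken from the F statistic as the size of the log2 fold change divided by its square root. Transcript usage was tested with diffSpliceDGE, and shares with an exact permutation test over libraries. DESeq2 1.42.0 and limma-voom (limma 3.58.1) were alternatives. The fits across features were tested on simulated data. CPM uses TMM-scaled library sizes. Transcript lengths, exons, overlaps and shared stretches of 50 bases are from GENCODE M21, matched by accession. Sequences are from RefSeq, GRCm38.p6; 6 of the 7 members matched in its promoter table.

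Named were all members and their transcripts, up to 3 genes of smallest p per list and the 3 genes most like Myh6, Myh7 and Myh7b (mean log2 CPM of at least 5, or 1 for Myh7b). Unc45b, Mybpc3 and some markers were added after their values were seen. The members and lists were chosen with earlier results of these data known.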

Additional observations from a re-analysis of the deposited data

How the results depend on the processing

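Of 108 values of the 7 genes under the alternatives, 102 were counted as keeping their direction and their side of FDR 0.05. The others were 4 that passed it (all Myh7b) and 2 that reversed (both Myh14). For each gene the 102 include the main fit read at FDR 0.1, which could not reverse. They also include Myh11 under DESeq2, which had no adjusted p. The number of genes passing was 1, against 6 with no low-count filter, 18 with DESeq2, 2 on the Ensembl table and 0 to 18 without 1 library (18 without caffeine replicate 1, 2 without caffeine replicate 2, 0 without vehicle replicate 1 and 8 without vehicle replicate 2). No transcript passed with edgeR, against 194 with DESeq2 and 0 to 1 without 1 library, and 89 genes passed for transcript usage, against 28 with the Simes adjustment, 523 on the Ensembl table and 15 to 53 without 1 library; the causes were not tested. Without 1 library, Myh14 ran from -0.49 to 0.0622, its transcript NM_001271540 from -0.41 to 3.009, the Myh6 share difference from -0.79 to 3.796 percentage points, the Myh10 share from -3.13 to 0.0702 and the sarcomeric share from -0.67 to 0.18. Fits without a vehicle library assume that the lone one varies like the others. Myh11 and Myh14 are limited by depth.

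The labels number the replicates in both groups but do not say that a number is shared. The deviations of same-numbered libraries correlated at -0.0225 and 0.131 over genes. With only 2 vehicle libraries, their deviations mirror each other, so these values cannot decide whether the numbers are pairs. With the replicate number as a block, 52 genes, 9 transcripts and 3 genes for usage passed, and Myh7b had a log2 fold change of 1.17 and an adjusted p of 1.36e-06.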
